A study of Mus musculus with 6 samples.

Results

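BALB/c and SKG stage 0 iNKT cells were compared for 52 genes of DNA replication, G1 control and mitosis. These genes were taken by symbol from the 48397 genes of the deposited count table. All 52 were found: 22 act in S phase, 7 control G1, and 23 act in G2 and mitosis (G2/M). Filtering on low counts left 50 of them among the 12312 genes tested, namely all 22 S phase genes, 6 G1 genes and 22 G2/M genes. The data are 6 libraries of polyA RNA, 3 per genotype, each from about 1000 cells of a thymus pool of 3 mice, which were 8 to 10 weeks old. SKG mice carry a hypomorphic mutation of Zap70, the kinase that relays T cell receptor (TCR) signals, on the BALB/c background that the wild-type controls share. Stage 0 cells, the earliest iNKT precursors after positive selection, were sorted as PBS57-CD1d tetramer+, CD44-, CD24+, CD69+, CD4lo/- and CD8-. The question put to these genes is whether weaker TCR signaling changes the cell cycle program of the earliest iNKT precursors. A hypomorphic protein need not change its own mRNA level, so the counts hold no direct check of the genotype.

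A cell that enters the cell cycle first raises D-type cyclins, which activate Cdk4 and Cdk6 and free E2F transcription factors from the retinoblastoma protein. E2F then drives the genes that license origins, make nucleotides and copy DNA. Genes of mitosis follow later in the cycle, through the MuvB complex with B-Myb and Foxm1, which act at cell cycle homology region (CHR) elements. After selection, iNKT precursors go through a burst of proliferation, so both waves of genes are of interest in the stage that precedes it.

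The promoters of the genes were searched for the letters of E2F sites, CHR elements and CCAAT boxes. RefSeq promoter windows of GRCm38.p6, from 250 bases before to 50 bases after a transcription start, were at hand for 43 of the 52 genes. The search covered both strands, for the E2F site letters TTTCCCGC, TTTCGCGC, TTTGCCGC and TTTGGCGC, for the CHR letters TTTGAA, and for CCAAT. Matches to different motifs overlapped only in a window of Mcm7. An E2F match was present for 8 of 19 S phase genes (42.1%), 1 of 18 G2/M genes (5.56%, Cdk1), 0 of 6 G1 genes and 2.6% of all 27025 genes of the promoter table. The CHR letters were present for 13 of 18 G2/M genes (72.2%), 2 of 19 S phase genes (10.5%), 0 of 6 G1 genes and 20.2% of all genes. CCAAT was present for 16 of 18 G2/M genes (88.9%), 10 of 19 S phase genes (52.6%), 3 of 6 G1 genes and 41.1% of all genes. The 150 bases before the start are shown for 3 S phase genes with E2F matches in capitals, to show that the motif occurs on either strand and, in Mcm6, as an interlocked pair plus a further copy.
Mcm6, chr1:128359706-128359855, minus strand: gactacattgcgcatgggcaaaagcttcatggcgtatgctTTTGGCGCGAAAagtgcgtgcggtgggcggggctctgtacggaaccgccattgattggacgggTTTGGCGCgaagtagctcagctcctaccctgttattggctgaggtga
Cdc6, chr11:98908001-98908150, plus strand: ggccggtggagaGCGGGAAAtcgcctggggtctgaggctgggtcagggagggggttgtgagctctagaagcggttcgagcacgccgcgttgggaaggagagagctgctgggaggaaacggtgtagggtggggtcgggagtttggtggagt
Pola1, chrX:93632156-93632305, minus strand: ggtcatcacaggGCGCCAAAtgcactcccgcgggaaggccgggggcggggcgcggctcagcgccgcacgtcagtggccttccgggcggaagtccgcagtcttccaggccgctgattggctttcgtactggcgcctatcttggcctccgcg
The same stretch is shown for 3 G2/M genes that recur in the results, with CHR and CCAAT matches of either strand in capitals.
Top2a, chr11:99024190-99024339, minus strand: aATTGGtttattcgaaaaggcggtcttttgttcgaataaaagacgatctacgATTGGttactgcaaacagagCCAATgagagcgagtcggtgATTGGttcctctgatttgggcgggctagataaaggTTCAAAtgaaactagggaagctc
Mki67, chr7:135716380-135716529, minus strand: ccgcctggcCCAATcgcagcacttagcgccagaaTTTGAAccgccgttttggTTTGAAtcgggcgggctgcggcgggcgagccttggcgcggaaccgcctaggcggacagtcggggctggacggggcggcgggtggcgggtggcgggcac
Kif11, chr19:37376232-37376381, plus strand: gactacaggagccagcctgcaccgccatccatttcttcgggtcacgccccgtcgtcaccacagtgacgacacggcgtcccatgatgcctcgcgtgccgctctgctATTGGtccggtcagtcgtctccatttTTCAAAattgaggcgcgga
None of these 6 stretches contains a base of an annotated exon. A match is a description of letters, and binding of a factor was not measured. No promoter window was at hand for Mcm4, Gins2, Ccne2, Ccnd2, Ccna2, Aurkb, Kif20a, Tpx2 and Stmn1, so these genes were not searched.

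**Figure D1:**
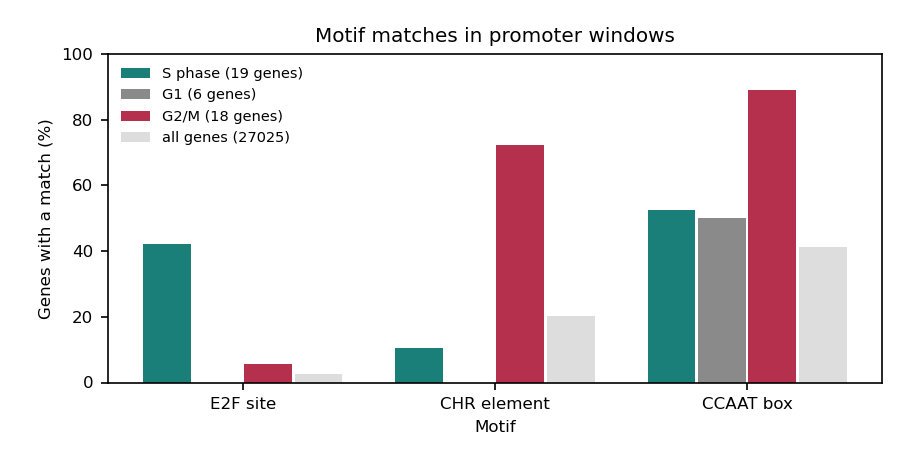
Percentage of genes (vertical axis) with at least 1 match to each motif in their promoter windows, for the S phase, G1 and G2/M genes and for all 27025 genes of the promoter table. E2F matches are most frequent in the S phase genes (42.1%), and CHR and CCAAT matches in the G2/M genes (72.2% and 88.9%).

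Reads counted on genes numbered from 37176544 to 43115544 per library, and levels are CPM, the reads of a gene per 1000000 reads after TMM scaling. A count of 0 allows up to 3 reads, or between 0.0696 and 0.0807 per 1000000 reads before TMM scaling, depending on the library. The number of genes holding 10 reads or more was 11415 to 14339 in BALB/c and 10835 to 14791 in SKG (p = 1.0 in an exact, two-sided permutation test, where 0.1 is the smallest p that 3 against 3 libraries can give). Stage 0 markers were present: over 7 genes, among them Egr2, Cd69, Cd3e and Trac, the sum was 3120 to 3955 CPM in BALB/c and 2723 to 3036 CPM in SKG. Cd24a, a marker of the gate, reached only 7.31 CPM in BALB/c replicate 2, and Cd8a, which the gate leaves out, was at 20.4 to 121 CPM. The sums of 6 markers of double-positive thymocytes ranged from 43 to 418 CPM in BALB/c and from 71.9 to 172 CPM in SKG, with the highest value in BALB/c replicate 1. That library also held the highest sums for 5 B cell markers (94.9 CPM, against 4.47 to 45 CPM elsewhere) and for 6 erythroid markers (69.7 CPM, against at most 1.57 CPM elsewhere). SKG replicate 3 held the highest sums for 5 double-negative thymocyte markers (53.3 CPM, against at most 16.2 CPM) and for 5 myeloid markers (140 CPM, against at most 77.3 CPM). Its sum of 5 thymic epithelial markers was also highest (86.9 CPM, against 10 to 40.3 CPM), nearly all from Epcam. Of the defining markers, Alas2, Krt5 and Psmb11 had 0 reads in every library, and Csf1r had at most 3. In bulk libraries, fewer cells of a type and less RNA per cell cannot be told apart.

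No member differed between the genotypes at the threshold. With edgeR's quasi-likelihood test, Benjamini-Hochberg adjustment over all genes tested, an FDR under 0.1 and at least a 1.5-fold change, 0 of 50 members were called, as were 0.0% of all genes tested. DESeq2, with or without shrinkage, and limma-voom also called 0 members. The DESeq2 runs called 2.58% of the genes they tested without shrinkage and 1.67% with it. At an unadjusted p under 0.05 there was 1 member, Mcm2, against 5.45% of all genes tested. It was higher in BALB/c, as were 2.38% of all genes tested, while 0 members and 3.07% of all genes were higher in SKG at that p. BALB/c and SKG values did not overlap for 5 of 50 members, a smaller share than the 13.9% seen over all genes tested. Of these, 2 were higher in SKG (Pola1 and Aurka, beside 6.77% of all genes) and 3 higher in BALB/c (Mcm2, Pcna and Cdt1, beside 7.12%). A missed threshold does not show that the genotypes are alike, and the intervals given with each gene show what the data leave possible.

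**Figure D2:**
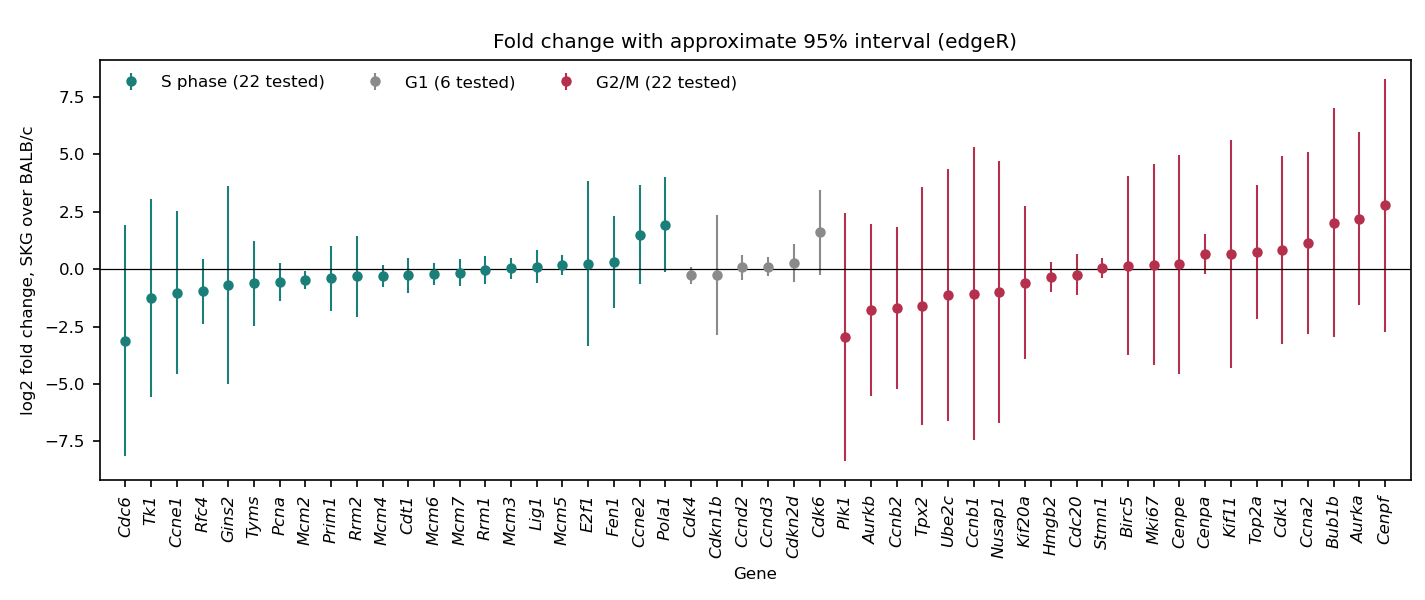
Log2 fold change of each tested member, SKG over BALB/c, with its approximate 95% interval from edgeR; genes are grouped as S phase, G1 and G2/M and ordered by fold change. Only the interval of Mcm2 (-0.85 to -0.07) lies wholly on one side of 0, and most G2/M intervals are several log2 units wide.

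Most S phase genes had a somewhat lower fitted level in SKG, though only Mcm2 reached an unadjusted p under 0.05. The median log2 fold change, coded as SKG over BALB/c, was -0.29 over the 22 genes, beside -0.02 over all genes tested. The log2 fold change was negative for 15 of 22 genes, where 51.0% of all genes tested were negative. Summed S phase expression in BALB/c was 2741, 2836 and 2495 CPM, with libraries here and throughout in the order of replicates 1, 2 and 3, and in SKG it was 2728, 2077 and 2276 CPM. SKG replicate 1 lay among the BALB/c values, so the genotypes overlapped. The means were 2690 ± 176 CPM (SD, n = 3) and 2360 ± 334 CPM (SD, n = 3), a ratio of 0.877. The median moved with single libraries: it was -0.09 without SKG replicate 3 and -0.10 without BALB/c replicate 1.

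**Figure D3:**
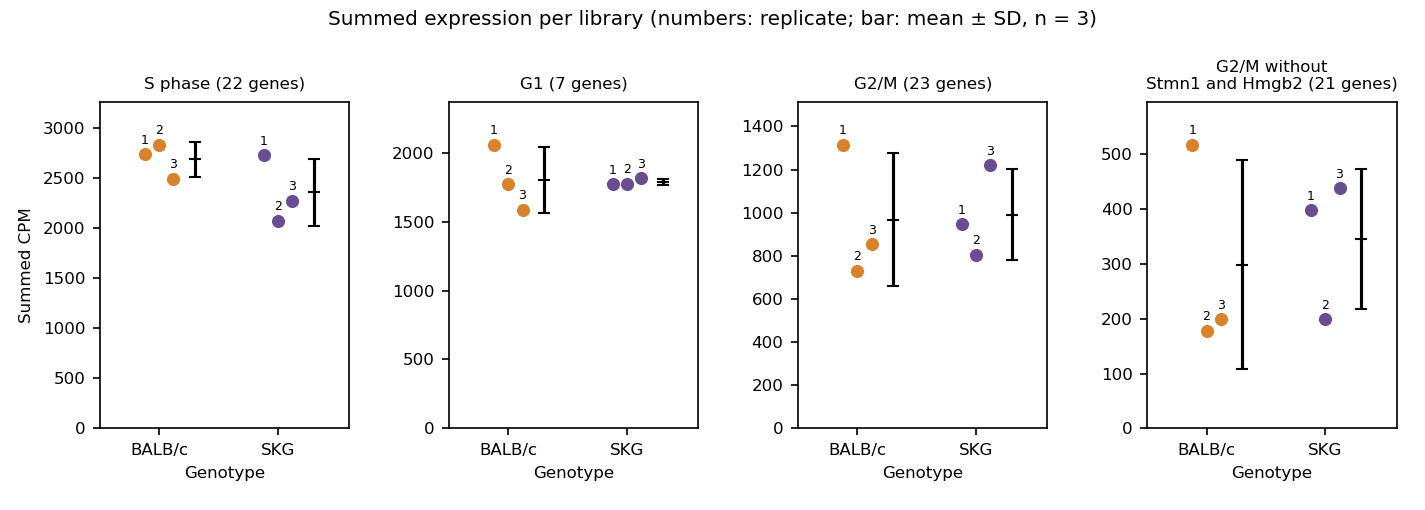
Summed CPM (vertical axes, each starting at 0) of the S phase, G1 and G2/M genes, and of the G2/M genes without Stmn1 and Hmgb2, in each library of BALB/c and SKG; numbers mark replicates and bars show mean ± SD, n = 3. The genotypes overlap in every panel, and BALB/c replicate 1 stands highest in both G2/M panels (1316 and 517 CPM).

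Mcm2 to Mcm7, the subunits of the helicase that unwinds DNA at the fork, supplied from 67.8% to 76.8% of the S phase sum in each library. Mcm2 (chr6:88883474-88898780, GRCm38, minus strand) was at 490, 534 and 385 CPM in BALB/c and at 316, 362 and 345 CPM in SKG. Every BALB/c library stood above every SKG library. The means were 470 ± 76.9 CPM (SD, n = 3) and 341 ± 23.2 CPM (SD, n = 3), a log2 fold change of -0.46 (standard error 0.16, 95% interval -0.85 to -0.07, edgeR adjusted p = 0.834). Its partners did not share that separation. Mcm7 was at 333, 573 and 414 CPM in BALB/c and 481, 352 and 350 CPM in SKG, and overlapped widely. Mcm6 was at 365, 342 and 315 CPM in BALB/c and 338, 217 and 329 CPM in SKG, with the one low value in SKG replicate 2. Mcm5 was at 249, 303 and 294 CPM in BALB/c and 375, 255 and 323 CPM in SKG, and its interval ran from -0.27 to 0.61. Mcm3 and Mcm4 had log2 fold changes of 0.04 (standard error 0.19) and -0.30 (standard error 0.20). With standard errors of 0.24 or less, the 6 Mcm genes were among the best measured members.

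Of the genes that load the helicase, Cdt1 was the evenest and Cdc6 the most uneven. Cdt1 was at 43.8, 45.9 and 47.1 CPM in BALB/c and 37.8, 32.0 and 43.6 CPM in SKG. The groups did not overlap, but by a margin that was small beside the spread in SKG (log2 fold change -0.27, standard error 0.31, edgeR adjusted p = 0.991). Cdc6 (chr11:98907801-98923940, plus strand), picked out after its counts were seen, had 1354, 84 and 675 BALB/c reads and 228, 2 and 1 SKG reads. Its lowest BALB/c library lay below SKG replicate 1, and the log2 fold change of -3.12 carried a standard error of 2.1. Gins2, a subunit of the active helicase, had 0 reads in SKG replicate 3 and 201 to 648 reads elsewhere. Other-strand genes cover 67.3% of Gins2 exon bases, and the counting ignored strand.

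At the replication fork, Pola1 was higher and Pcna lower in every SKG library. Pola1 (chrX:93304767-93632155, minus strand), the catalytic subunit of the polymerase that starts each DNA strand, was at 10.2, 1.75 and 19.4 CPM in BALB/c and 42.4, 31.7 and 46.2 CPM in SKG. All 3 SKG libraries stood above all 3 BALB/c libraries. The means were 10.5 ± 8.84 CPM (SD, n = 3) and 40.1 ± 7.52 CPM (SD, n = 3), or a 3.84-fold difference with a 95% interval from 0.924 to 15.9 (edgeR adjusted p = 0.947). Pcna, the sliding clamp, was at 164, 181 and 161 CPM in BALB/c and 142, 141 and 60.1 CPM in SKG. The groups did not overlap, and the low SKG value was replicate 3 (log2 fold change -0.56, standard error 0.34, edgeR adjusted p = 0.972). Pcna has 2 pseudogenes named after it in the annotation, with which it could share reads. Rfc4, of the clamp loader, was at 91.2, 25.9 and 49.9 CPM in BALB/c and 14.9, 34.4 and 35.7 CPM in SKG, and its groups overlapped. The primase subunit Prim1, the ligase Lig1 and the flap endonuclease Fen1 had log2 fold changes of -0.40, 0.10 and 0.29, with standard errors of 0.59, 0.30 and 0.83. Fen1 was measured on only 21 to 60 reads, and other-strand genes cover 84.2% of its exon bases.

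Genes that supply nucleotides had log2 fold changes of -0.04 (Rrm1), -0.32 (Rrm2), -0.61 (Tyms) and -1.24 (Tk1), with standard errors of 0.26, 0.74, 0.78 and 1.80. Rrm1, the large subunit of ribonucleotide reductase, was at 163 ± 38.6 CPM in SKG and 167 ± 38.8 CPM in BALB/c (SD, n = 3 each). Rrm2, the subunit that limits the enzyme in S phase, was at 154, 24.6 and 34.5 CPM in BALB/c and 80.7, 55.9 and 34.0 CPM in SKG. The spread within BALB/c exceeded the difference between the groups. Tyms and Tk1, which make thymidine nucleotides, were both highest in BALB/c replicate 1, at 40.6 and 46.2 CPM. Tk1 had 1 read in SKG replicate 3. At the entry to S phase, the E-type cyclin genes pointed in opposite directions. Ccne2 was at 9.96, 2.70 and 6.80 CPM in BALB/c and 14.6, 7.18 and 32.7 CPM in SKG, with overlapping groups and a log2 fold change of 1.48 (standard error 0.90, edgeR adjusted p = 0.972). Ccne1 had a log2 fold change of -1.02 (standard error 1.48) with 2 reads in SKG replicate 2. E2f1, itself an E2F target, was at 5.11 to 7.47 CPM in BALB/c and at 10.4, 12.7 and 0.0553 CPM in SKG.

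The G1 genes had the smallest errors of the 3 classes and differed little in sum. Summed, they were at 2059, 1772 and 1585 CPM in BALB/c and at 1772, 1774 and 1815 CPM in SKG, a ratio of 0.990. The SKG values all fell inside the BALB/c range. Ccnd2, a D-type cyclin that growth signals raise, was at 883, 837 and 541 CPM in BALB/c and 884, 859 and 652 CPM in SKG (log2 fold change 0.08, 95% interval -0.46 to 0.63). Ccnd3, the D-type cyclin needed for thymocyte expansion, was at 280, 253 and 291 CPM in BALB/c and 267, 257 and 356 CPM in SKG. Its interval of 0.799 to 1.43-fold leaves out both a doubling and a halving. Cdk4, the kinase partner of both, was at 758, 591 and 682 CPM in BALB/c and 533, 516 and 642 CPM in SKG, with overlapping groups (log2 fold change -0.27, standard error 0.15, edgeR adjusted p = 0.972).

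Cdk6, the second D-type cyclin kinase, had the largest fold change of the 6 G1 genes tested with edgeR. It was at 9.60, 8.47 and 7.22 CPM in BALB/c and at 6.97, 34.3 and 35.3 CPM in SKG. SKG replicates 2 and 3 stood above all BALB/c libraries, while SKG replicate 1 stood below them (3.03-fold, 95% interval 0.844 to 10.9, edgeR adjusted p = 0.952). Among the inhibitors, Cdkn2d (p19), which blocks Cdk4 and Cdk6, was at 121, 67.0 and 56.1 CPM in BALB/c and 77.3, 106 and 113 CPM in SKG. Cdkn1b (p27), which holds cells out of the cycle, was at 6.23, 12.8 and 6.20 CPM in BALB/c and 3.00, 1.72 and 16.4 CPM in SKG. Both inhibitors overlapped between the genotypes. Cdkn1a (p21), a target of p53, had 0, 75 and 69 BALB/c reads and 3, 0 and 0 SKG reads. It was too low to be tested with edgeR, and DESeq2 without shrinkage gave an adjusted p of 0.513.

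The G2/M genes showed no common direction and a wide spread between libraries of one genotype. Their median log2 fold change was 0.09, with 12 of 22 positive, and the median standard error was 1.68, against 0.59 in the S phase class and 0.29 in G1. The standard error was over 1 for 18 of the 22 genes. The median log2 fold change moved with single libraries, to 1.31 without BALB/c replicate 1, -0.43 without SKG replicate 3, -0.31 without BALB/c replicate 2 and -0.29 without BALB/c replicate 3. Summed G2/M expression was 1316, 732 and 853 CPM in BALB/c and 948, 806 and 1220 CPM in SKG, a ratio of 1.03. The highest library was BALB/c replicate 1 and the next SKG replicate 3, which are also the libraries with the highest sums of markers of other cells. What part those cells had in the G2/M values was not tested. With both libraries left out, a choice made after seeing the data, the ratio was 1.11 and the median 0.57.

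Stmn1 and Hmgb2 made up from 58.1% to 76.7% of the G2/M sum and were measured well. Stmn1, which destabilizes microtubules and is abundant in thymocytes, was at 559, 409 and 484 CPM in BALB/c and 430, 478 and 594 CPM in SKG. The groups overlapped, and the interval of 0.762 to 1.4-fold leaves out a doubling. Hmgb2, a chromatin protein, was at 239, 145 and 170 CPM in BALB/c and 120, 129 and 189 CPM in SKG, again with overlap (log2 fold change -0.34, standard error 0.27). Both genes are also transcribed outside mitosis. Set against exon length, the mean level was 256 CPM per kilobase for Stmn1 and 55.1 CPM per kilobase for Hmgb2, where the G2/M median was 2.77. The S phase median was 14.1 and the G1 median 32.4 CPM per kilobase. Without Stmn1 and Hmgb2 the other 21 genes summed to 517, 178 and 199 CPM in BALB/c and 397, 199 and 437 CPM in SKG. In percent of the S phase sum of the same library this was 18.9, 6.27 and 7.97 in BALB/c and 14.6, 9.60 and 19.2 in SKG. Both genotypes held libraries at low and at high values.

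Among the kinases and cyclins that drive mitosis, counts often fell to 1 read or none in a library of a genotype whose other libraries were well covered. Cdk1 (chr10:69335146-69352938, minus strand), the mitotic kinase, had 526, 1 and 98 BALB/c reads and 424, 98 and 489 SKG reads. Its partner Ccnb1 had 1205, 2 and 24 BALB/c reads and 570, 1 and 2 SKG reads. In each genotype a single library carried most Ccnb1 reads (log2 fold change -1.07, standard error 2.66). Without BALB/c replicate 1 that value turned to 4.0, and DESeq2 gave the gene no p-value. Ccnb1 and Ccnb2 have a pseudogene named after them. Plk1, which drives entry into mitosis, had 701, 549 and 138 BALB/c reads and 180, 1 and 0 SKG reads. SKG replicate 1 lay above BALB/c replicate 3, so the groups overlapped (log2 fold change -2.95, standard error 2.25, edgeR adjusted p = 0.991). Aurka, the centrosome kinase, had 1, 330 and 311 BALB/c reads and 754, 479 and 1492 SKG reads. All SKG libraries stood above all BALB/c libraries. The means were 5.27 ± 4.65 CPM and 24.1 ± 15.2 CPM (SD, n = 3 each), a 4.57-fold difference with a 95% interval from 0.337 to 62.1 (edgeR adjusted p = 0.988). Aurkb, the kinase of the chromosomal passenger complex, had a log2 fold change of -1.77 (standard error 1.57), and the cyclin gene Ccnb2 one of -1.68 (standard error 1.47).

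Markers commonly used to score cycling cells were as uneven. Mki67 (chr7:135689784-135716361, minus strand), which encodes Ki-67, had 2724, 1 and 111 BALB/c reads and 684, 970 and 1305 SKG reads. The BALB/c libraries held both the highest and the lowest value, and the SKG libraries lay between them. The means were 22.8 ± 37.4 CPM and 26.0 ± 9.60 CPM (SD, n = 3 each), with a log2 fold change of 0.19 (standard error 1.83) that became 4.39 without BALB/c replicate 1 and -0.40 without BALB/c replicate 2. Top2a, which untangles replicated chromosomes, had 1820, 150 and 1750 BALB/c reads and 1983, 127 and 3327 SKG reads. Replicate 2 was the low library in both genotypes, though no pairing of the samples by replicate number was seen. Kif11, the spindle motor, had 1566, 1 and 599 BALB/c reads and 1745, 1462 and 6 SKG reads. Nusap1, a spindle protein, had 2422, 2 and 186 BALB/c reads and 12, 9 and 1118 SKG reads. The low library for Mki67 and Kif11 in BALB/c was the same one, replicate 2, while the SKG libraries with few reads differed from gene to gene.

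Centromere and checkpoint genes divided into well and poorly measured ones. Cenpa, the centromeric histone, was at 61.3, 40.2 and 45.4 CPM in BALB/c and 83.4, 46.9 and 100 CPM in SKG. The groups overlapped, and the log2 fold change was 0.65 (standard error 0.37, edgeR adjusted p = 0.971). Cdc20, which activates the anaphase-promoting complex, was at 76.3, 50.0 and 41.2 CPM in BALB/c and 50.6, 34.5 and 57.1 CPM in SKG, and overlapped likewise. Cenpf, a kinetochore protein, had 79, 1 and 0 BALB/c reads and 22, 62 and 403 SKG reads (log2 fold change 2.77, standard error 2.30). Bub1, a spindle checkpoint kinase, had 0 reads in all 6 libraries, while its relative Bub1b had 351, 20 and 211 BALB/c reads and 1484, 739 and 0 SKG reads. The other G2/M genes, Ccna2, Birc5, Ube2c, Cenpe, Kif20a and Tpx2, had standard errors between 1.39 and 2.29, each larger than the size of its log2 fold change.

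**Figure D4:**
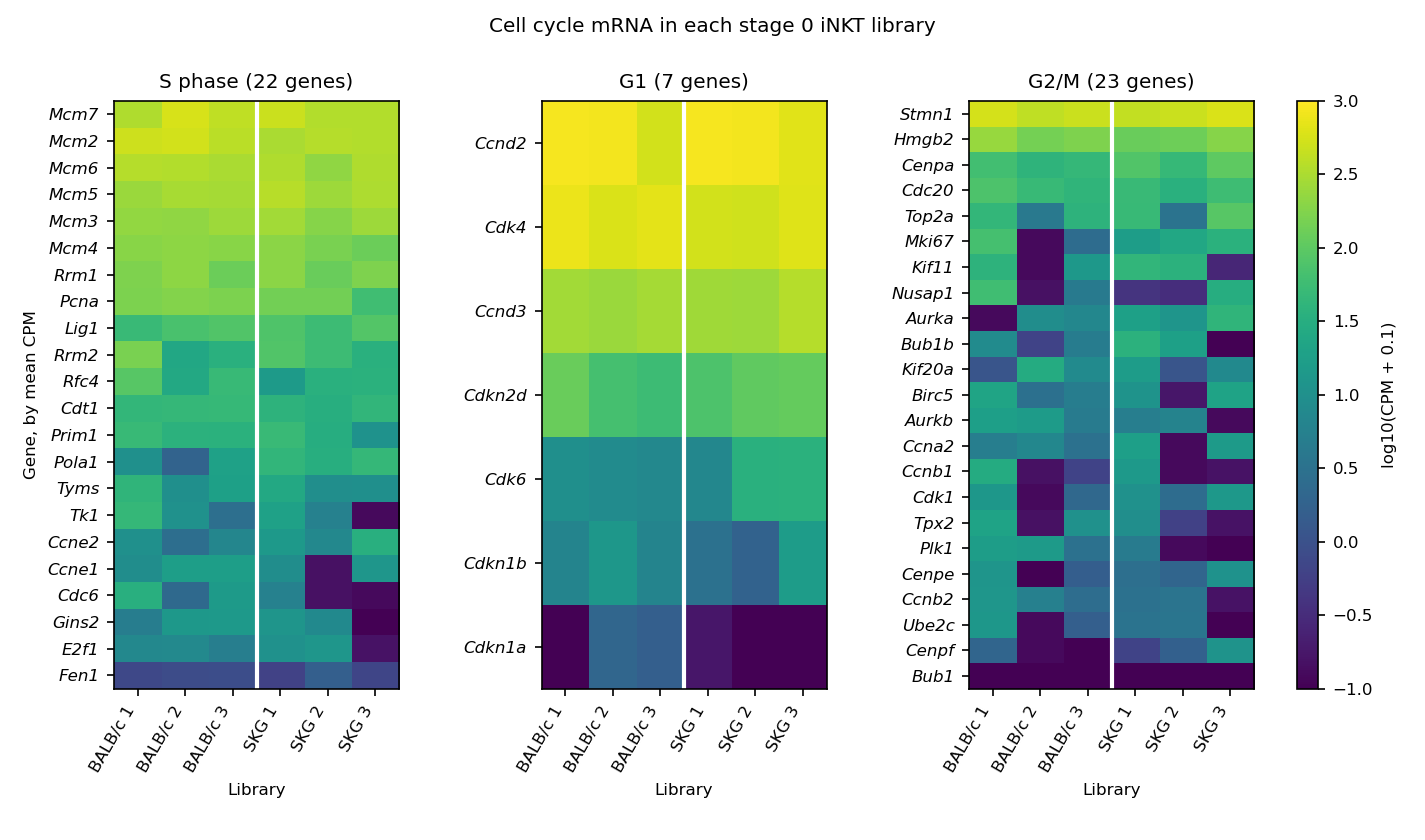
Level of each of the 52 genes, as log10(CPM + 0.1) on the color scale, in the 3 BALB/c and 3 SKG libraries, with genes ordered by mean CPM in each class and a white line between the genotypes. The more abundant S phase and G1 genes form even bands, while dark cells, at or near 0 reads, lie scattered through the G2/M genes in both genotypes.

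By a rule chosen after the counts were seen, a gene dropped out when it had at most 3 reads in a library and at least 100 in another of the same genotype. That held for 15 of 23 G2/M genes, 5 of 22 S phase genes (Cdc6, Gins2, Tk1, E2f1 and Ccne1) and 0 of 7 G1 genes, beside 16.4% of all genes tested. Dropping out was more frequent at low levels. Among genes tested with a mean under 10 CPM it held for 41.2%, and among the members for 9 of 11 G2/M genes, one of which is the untested Bub1, and 3 of 4 S phase genes. Between 10 and 100 CPM it held for 7.02% of genes, for 6 of 10 G2/M genes and for 2 of 10 S phase genes. At 100 CPM or more it held for 0 of 2678 genes. In the middle range the 6 G2/M genes had means of only 10.2 to 24.4 CPM, and the 2 S phase genes 10.8 and 14.1 CPM. Levels were therefore not matched within the range. Of the further lists described below, 27 of 52 other mitotic genes (51.9%) and 4 of 41 other replication genes (9.76%) dropped out by the rule. With at most 10 reads in place of 3, the counts in the 3 classes were the same.

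The libraries took unequal parts in this. G2/M genes with at most 3 reads numbered 2, 10 and 2 of 23 in BALB/c and 1, 5 and 8 of 23 in SKG. S phase genes at that level numbered 0 in each BALB/c library and 0, 2 and 4 of 22 in SKG. The SKG shares were 0%, 9.09% and 18.2%, not far from the 2.98%, 5.85% and 13.6% of all genes tested in the same libraries. In BALB/c the shares of all genes tested were 11.1%, 8.09% and 0.804%. The second BALB/c library had 43.5% of the G2/M genes and 8.09% of all genes tested at this level, and the third SKG library had 34.8% and 13.6%. BALB/c replicate 1, with 11.1% of all genes tested at most at 3 reads, had only 8.70% of G2/M genes there. Each library is 1 pool of cells, and amplification copies cannot be told from separate molecules.

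**Figure D5:**
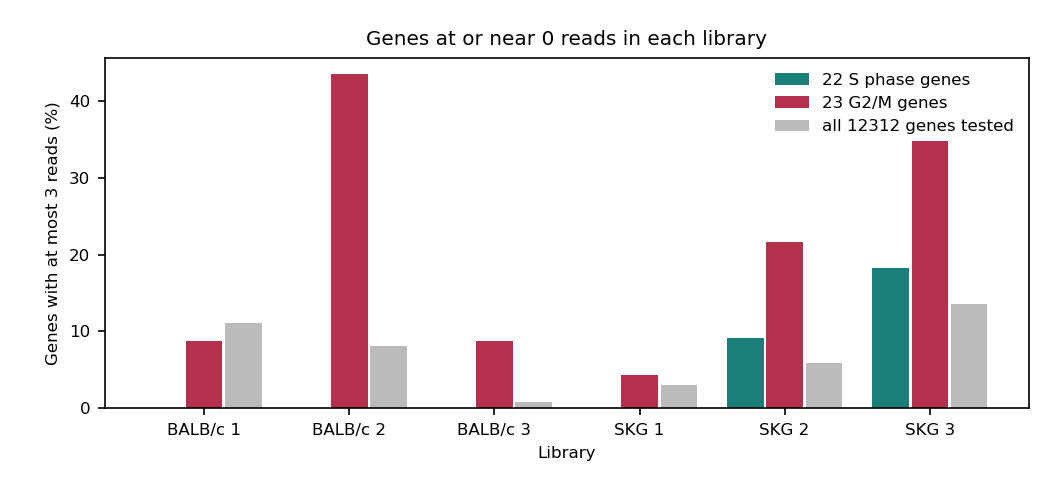
Percentage of the 22 S phase genes, the 23 G2/M genes and all 12312 genes tested (bars) that had at most 3 reads in each library. The G2/M bars reach 43.5% in the second BALB/c library and 34.8% in the third SKG library. S phase bars appear only in SKG replicates 2 and 3, at 9.09% and 18.2%, beside 5.85% and 13.6% of all genes tested.

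Further genes of the same pathways were read from the same fit in 5 lists of 148 genes in all. With edgeR, 0 were called, while DESeq2 called 3 (Pold1, Hmmr and Gtse1), without and with shrinkage, beside 2.58% (without) and 1.67% (with) of all genes tested. Of 41 other replication genes, all tested, 2 were higher in SKG and 1 lower at an unadjusted p under 0.05 (7.32%, beside 5.45% of all genes tested), and the median log2 fold change was -0.11. Pold1, the catalytic subunit of polymerase delta, was at 88.7, 116 and 129 CPM in BALB/c and 226, 199 and 186 CPM in SKG. The groups did not overlap, and SKG was 1.83-fold higher (log2 fold change 0.87, standard error 0.20, 95% interval 0.39 to 1.35, edgeR adjusted p = 0.619). DESeq2 without shrinkage gave it an adjusted p of 0.0229. Pold1 and Pola1 were both higher in every SKG library, but other subunits of the same enzymes overlapped between the genotypes. Their log2 fold changes were 0.46 for Pold2, -0.07 for Pold3, 0.08 for Pola2, -0.40 for Prim1 and -0.04 for Prim2. Rfc1, the large subunit of the clamp loader, was at 72.0 ± 23.4 CPM in BALB/c and 125 ± 30.8 CPM in SKG (SD, n = 3 each). The groups overlapped, with BALB/c replicate 3 at 98.1 CPM and SKG replicate 1 at 92.2 CPM (edgeR adjusted p = 0.894). Its partners Rfc2, Rfc3, Rfc4 and Rfc5 had log2 fold changes of the opposite sign (-0.11, -0.05, -0.97 and -0.33). Orc5, of the origin recognition complex, was at 86.0, 84.1 and 78.1 CPM in BALB/c and 57.0, 27.9 and 46.0 CPM in SKG, without overlap (log2 fold change -0.92, standard error 0.33, edgeR adjusted p = 0.834).

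Of 52 other mitotic genes, 47 were tested, 0 were higher and 3 lower in SKG at an unadjusted p under 0.05 (6.38%, beside 5.45% of all genes tested), and the median was -0.07. Hmmr, which organizes spindle microtubules, had 1874, 84 and 218 BALB/c reads and 8, 2 and 1 SKG reads. Gtse1, a microtubule-associated protein of G2 and mitosis, had 1700, 10 and 580 BALB/c reads and 4, 3 and 4 SKG reads. Each BALB/c library stood above each SKG library for both genes, though BALB/c replicate 2 held only 10 reads of Gtse1. The edgeR adjusted p was 0.671 for Hmmr and 0.686 for Gtse1, and DESeq2 without shrinkage gave 1.14e-05 and 3.74e-05. Incenp, a passenger complex subunit, was at 81.8 ± 21.4 CPM in BALB/c and 45.7 ± 6.47 CPM in SKG (SD, n = 3 each), also without overlap. Other G1 regulators had a median of -0.23 over 15 genes tested, with 2 lower in SKG at that p (13.3%). These were Btg1, an antiproliferative factor, at 459 ± 31.4 CPM in BALB/c and 347 ± 39.0 CPM in SKG, and Trp53, which encodes p53, at 573 ± 143 CPM and 388 ± 34.6 CPM (SD, n = 3 each). Neither overlapped between the genotypes, and the edgeR adjusted p was 0.834 and 0.845. E2F, pocket protein and MuvB genes (19 tested) and checkpoint and repair genes (15 tested) had 0 genes at an unadjusted p under 0.05 and medians of -0.05 and 0.09.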

How the data were processed

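Reads of 50 nt from 6 libraries (3 BALB/c, 3 SKG) were aligned by the authors to GRCm38 with HISAT2 2.1.0 and counted on Ensembl 85 exons with featureCounts (Subread 1.4.4) at a mapping quality of at least 10, without regard to strand. The deposited counts are whole numbers per gene with no normalization. A second deposited table holds the authors' DESeq2 fold changes and p-values and was not used. Preamplification was by SMART-Seq v4 with 18 cycles per the labels, whereas the methods name another kit. Neither source mentions molecular identifiers, so a count is of reads, and the floor of a count of 0 covers counting error only.

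All 6 libraries entered one fit in R 4.3.3 with edgeR 4.0.16, without covariates: filterByExpr by genotype, TMM factors, the quasi-likelihood F test and Benjamini-Hochberg adjustment over 12312 genes. A call needed an FDR under 0.1 and a 1.5-fold change. The standard error is the log2 fold change divided by the root of F. Between libraries of a genotype the coefficient of variation was 91.8%, at totals of 37176544 to 43115544 reads. Counting error is small beside that variation for genes with many reads. It is not small where a gene has at most 3 reads in a library. P-values and the intervals of fold changes measure the spread between pools of 3 mice. DESeq2 1.42.0, limma-voom (limma 3.58.1), other factors, filters and thresholds, either replicate number as a block and each library left out were alternatives. Only the edgeR fit was tested on simulated data, with less spread between libraries than the coefficient of variation of 91.8% here. That test does not show how the fit performs at the spread of these data. Positions and exon lengths came from GENCODE M21, and promoter windows from RefSeq.

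The members and the further lists were chosen with earlier results of these data known, so lists are described by counts and medians. Values per library are given for all G1 genes, and in the other classes for the 5 genes with the lowest p, the 4 with the highest mean CPM, and Mcm2, Pcna, Mki67, Top2a, Cdk1 and Ccnb1. Of the further lists, genes with an unadjusted p under 0.05 are given, at most 3 per list and direction. Other genes shown by library (Cdc6, Cdt1, Rrm2, E2f1, Kif11, Nusap1, Bub1 and Bub1b) were chosen after their values were seen.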

Additional observations from a re-analysis of the deposited data

How the results depend on the processing

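Calls depended on the tool. Over all genes edgeR called 0 (671 at an unadjusted p under 0.05), limma-voom 0, DESeq2 370 without and 231 with shrinkage, and edgeR without a filter 2. In the further lists DESeq2 called 3 with either version and edgeR 0. No member was called in any setting run. The cause of these differences was not tested. Leaving out each library in turn gave medians from -0.37 to -0.09 for S phase, -0.05 to 0.19 for G1 and -0.43 to 1.31 for G2/M, ratios of summed CPM from 0.809 to 0.930 for S phase and 0.907 to 1.25 for G2/M, and 0 calls. Of the 33 named genes with a test, to which these settings were applied, the log2 fold change changed sign for Ccnd2 (-0.10 to 0.22), Ccnd3 (-0.05 to 0.19), Cdkn1b (-1.82 to 0.21), Mcm7 (-0.33 to 0.07), Stmn1 (-0.08 to 0.17), Cdc20 (-0.41 to 0.06), Mki67 (-0.40 to 4.39), Top2a (-0.14 to 1.30) and Ccnb1 (-7.84 to 4.0). Without BALB/c replicate 1 and SKG replicate 3 together, Ccnd3 was at -0.04 and Ccnb1 at 4.58. The difference in genes detected, SKG minus BALB/c, was 110 at 10 reads or more and -187 at 100 or more (two-sided exact permutation test, p = 0.8). With totals this alike, the spread between 3 libraries per genotype sets the precision, most of all for G2/M genes.

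Residuals of libraries with the same number correlated between -0.145 and 0.00289. These values show no pairing by number, but with so wide a spread between libraries they cannot exclude it. With the title number as a replicate block there were 0 calls and medians of -0.30 for S phase and 0.15 for G2/M. With the library number as a block there were 0 calls, medians of -0.48 for S phase, -0.01 for G1 and -0.37 for G2/M, and a log2 fold change of -0.20 for Ccnd2. Only library numbers 2 and 3 occur in both genotypes. These fold changes therefore rest on BALB/c replicates 1 and 2 against SKG replicates 2 and 3.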

Other observations

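Counting without regard to strand cannot tell apart reads from exon bases that genes on opposite strands share. The methods do not state whether such reads were left out or counted. Such overlap covered 29.3% of the exon bases of Kif20a, 22.8% for Ube2c, 19.7% for Cdk4, 17.4% for Ccne2, 12.7% for Rfc4 and 12.5% for Ccna2. For Mcm7, overlap covered 12.6%, with genes of the other strand and with Mir25 and Mir93 on its own strand. Ccnd3 and Tyms have pseudogenes named after them.

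Trav11d, the variable segment of the invariant TCR chain, had from 803 to 1264 reads in each of the 6 libraries. Cd69, one of the sort markers, was at 312, 391 and 354 CPM in BALB/c and 152, 179 and 250 CPM in SKG, without overlap. Cd24a, another sort marker, was at 7.31 to 52.4 CPM in BALB/c and 31.9 to 90.7 CPM in SKG.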
